A study of Heterocephalus glaber and Mus musculus with 9 samples.

Results

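Neutrophil granule and maturation genes were followed through 9 genes, ordered by the stage of the granulocyte that each is best known for. The 9 genes were chosen by their symbols, with earlier results of these data known. They were Mpo for the primary granule, the transcription factor gene Cebpe, Ltf and Mmp8 for the secondary granule, Mmp9 for the tertiary granule, and S100a9, Padi4, Csf3r and Cxcr2 for the mature cell. All 9 were found among the 12946 genes of the table of normalized counts and all were detected in every spleen. The lowest value was 32.5 normalized counts, which was Cebpe in mouse 3 and stood for 31 reads.

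RNA from whole spleens of 3 mice and 6 naked mole-rats (NM-Rs) was sequenced, with 1 library per animal and no treatment. The study asked what distinguishes NM-R spleens of either size from mouse spleens and from one another, in healthy animals. The mice were wild-type C57Bl/6N males, 2 months old. The 3 NM-Rs with a small spleen (ssNM-R 2, 3 and 6) were males of 23 to 30 months. Of the 3 NM-Rs with an enlarged spleen (lsNM-R 1, 4 and 5), which were 23 to 29 months old, lsNM-R 4 was female and the other two were male. The NM-Rs were kept warmer than the mice. Species, age, housing, gene length and the matching of NM-R genes to mouse symbols therefore differed together between mouse and NM-R and cannot be told apart. Summed over the genes of the table, the libraries held between 7815326 and 18387599 reads. Over 14000000 reads were found in ssNM-R 6, lsNM-R 4 and lsNM-R 5 alone, so that either depth class held a single spleen of one of the NM-R cohorts. The spleen transcription factor genes Tlx1, Nkx2-3, Nkx2-5, Tcf21 and Wt1 were expressed in both species.

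Neutrophils arise from committed progenitors in the bone marrow, and in rodents also in the red pulp of the spleen. As they mature they pack their proteins into successive granule types. Promyelocytes fill the primary granules with myeloperoxidase and serine proteases. C/EBP epsilon, encoded by Cebpe, is needed for the step to the myelocyte, which makes the secondary granules. Metamyelocytes and band cells then fill the gelatinase granules. Segmented neutrophils carry the receptors for granulocyte colony-stimulating factor and for chemokines of the CXC class, which govern their survival and their release into the blood.

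C/EBP factors bind sites in the promoters of several granule protein genes, and the ETS factor PU.1 acts beside them in myeloid cells. Sequence in front of 4 of the 9 mouse genes is given here. Ltf had the highest level per kilobase among the granule protein genes in mouse, Padi4 differed most between the species, Mmp8 differed most between the NM-R cohorts, and Cxcr2 was the gene that was lower in both cohorts than in mice. Each run holds the 250 bases before the start of the mouse transcript in mm9, 5′ to 3′ on the strand of the gene. The runs lie at chr9:110921546-110921795 (Ltf, plus strand), chr4:140330152-140330401 (Padi4, minus strand), chr9:7558179-7558428 (Mmp8, plus strand) and chr1:74200313-74200562 (Cxcr2, plus strand). Capitals mark matches to the C/EBP motif TTNNGNAA on either strand.
Ltf: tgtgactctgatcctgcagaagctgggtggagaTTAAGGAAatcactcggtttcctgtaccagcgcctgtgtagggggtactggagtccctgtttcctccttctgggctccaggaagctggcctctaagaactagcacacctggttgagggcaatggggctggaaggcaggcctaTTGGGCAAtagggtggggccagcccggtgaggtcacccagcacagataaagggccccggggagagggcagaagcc
Padi4: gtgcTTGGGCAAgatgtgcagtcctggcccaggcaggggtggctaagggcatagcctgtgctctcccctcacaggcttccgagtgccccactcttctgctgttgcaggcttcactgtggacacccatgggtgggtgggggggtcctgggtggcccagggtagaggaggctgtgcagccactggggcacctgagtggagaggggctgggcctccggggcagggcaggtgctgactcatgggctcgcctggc
Mmp8: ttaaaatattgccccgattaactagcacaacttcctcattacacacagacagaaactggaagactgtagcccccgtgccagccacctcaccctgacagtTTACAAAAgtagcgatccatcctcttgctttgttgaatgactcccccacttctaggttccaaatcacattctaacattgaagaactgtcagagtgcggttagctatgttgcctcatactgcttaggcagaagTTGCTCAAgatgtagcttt
Cxcr2: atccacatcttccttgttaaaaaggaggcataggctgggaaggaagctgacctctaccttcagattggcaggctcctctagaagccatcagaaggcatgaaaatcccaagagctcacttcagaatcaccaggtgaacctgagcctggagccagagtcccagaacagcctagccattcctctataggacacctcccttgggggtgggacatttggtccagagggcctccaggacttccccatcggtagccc
Over the 9 genes, 8 held the C/EBP motif in this window, and Cxcr2 did not. Ltf, Cebpe, Mmp8 and S100a9 held it 2 times each. Among 10372 genes of the table with a mouse start, 28.4% held it. The PU.1 motif GAGGAA was found on either strand before Mpo, Cebpe, Ltf, Mmp8 and Cxcr2, which is 5 of the 9, and before 22.9% of the same 10372 genes. None of these matches overlapped a match of the other motif. A match is a description of letters in the mouse window, and NM-R sequence was not used here.

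In the mouse spleen, where the length of each gene is known, the level per kilobase of exon ordered the 9 genes. S100a9 stood first at 7850 ± 857 normalized counts per kb (SD, n = 3), followed by Ltf at 529 ± 62.2, Csf3r at 379 ± 70.5 and Mpo at 271 ± 34.0. Mmp9 (193 ± 36.8) and Cxcr2 (159 ± 27.9) came next and their ranges over the mice overlapped. Mmp8 (63.7 ± 15.1), Cebpe (34.6 ± 7.27) and Padi4 (21.8 ± 3.44) were the lowest. Apart from Mmp9 and Cxcr2, no neighbours in this order overlapped. NM-R gene lengths were not used here, so all other values are normalized counts, which are not divided by length, and each gene is compared with itself.

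Most of the order was higher in NM-R spleens than in mouse spleens and the chemokine receptor at its end was lower. Compared to mice, 6 of the 9 genes were higher in ssNM-R and 2 were lower, and 7 were higher in lsNM-R and 1 was lower (limma adjusted p under 0.05 over all genes). Of all 12946 genes, 75.5% passed the same threshold in either direction in ssNM-R (38% higher, 37.5% lower) and 75% in lsNM-R (38.1% higher, 37% lower), so that a call alone is close to the background. The size and the direction of each difference are therefore given. The median log2 fold change of the 9 genes was 1.79 in ssNM-R and 1.62 in lsNM-R, beside medians of 0.022 and 0.0073 over all genes. The counts had been scaled by DESeq2 size factors over both species, which keeps the median over all genes small by construction. The paper had already reported Mpo, Ltf, Mmp9 and Cebpe RNA as increased in these NM-R spleens, and higher MPO protein in NM-R than in mouse spleens. The medians of the 9 genes therefore carry no independent weight. In ssNM-R 8 of the 9 genes did not overlap with mouse, beside 78.9% of all genes (39.7% higher, 39.2% lower), and in lsNM-R 8 of the 9, beside 78.6% (39.6% higher, 39% lower). Both comparisons share the same 3 mice. In these bulk samples, fewer cells of a type and less RNA per cell cannot be told apart.

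**Figure D1:**
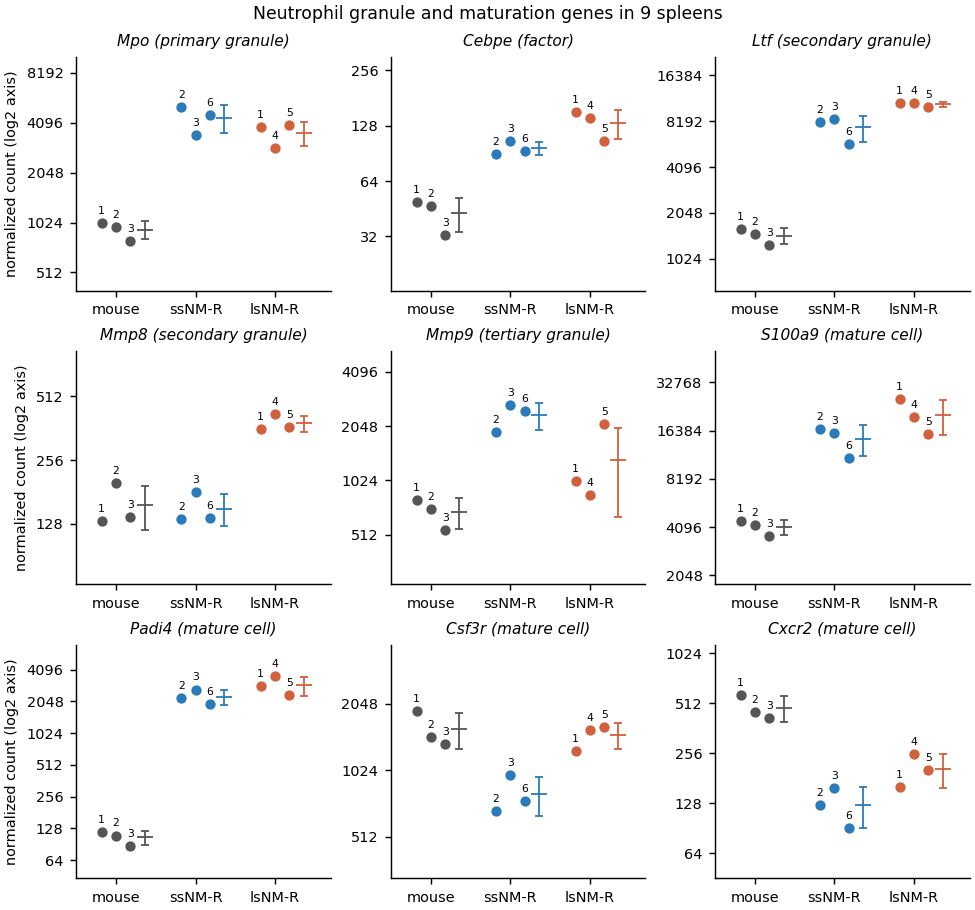
Normalized counts (log2 axis) of the 9 genes in each spleen, with the animal number beside each point and the mean ± SD (n = 3) beside each group. The NM-R points lie above all mouse points for Mpo, Cebpe, Ltf, Mmp9, S100a9 and Padi4 and below them for Cxcr2, whereas Mmp8 and Csf3r in NM-R reach into the mouse range in one cohort each.

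Mpo encodes myeloperoxidase, the haem enzyme of the primary granule that makes hypochlorous acid. It lies on chromosome 11 of mm9 on the plus strand (ENSMUSG00000009350.7) and overlaps the annotated gene Gm11505. Reads of such a pair can be told apart only if counting used the strand, which the sources used here do not give. The mice had 1021, 962 and 797 normalized counts. The ssNM-Rs 2, 3 and 6 had 5107, 3460.5 and 4585, and the lsNM-Rs 1, 4 and 5 had 3853, 2888 and 3962. Each NM-R spleen was above each mouse, and the cohorts overlapped with each other. The mean over both cohorts was 4.29 times that of mice (2.08 ± 0.15 standard error on the log2 scale, limma adjusted p = 7.55e-07).

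Cebpe, on the minus strand of chromosome 14 from 55329200 to 55331011, encodes the factor that drives secondary granule genes. It was the lowest gene of the set in raw signal, at 49.2, 46.7 and 32.5 normalized counts in the mice. It reached 90.3, 105 and 93.5 in ssNM-R and 151, 141 and 106 in lsNM-R. All NM-Rs exceeded all mice, by 2.25-fold in ssNM-R and 3.10-fold in lsNM-R (adjusted p = 8.11e-04 and 9.16e-05). Behind these values stand 31 to 49 reads per mouse and 66 to 200 reads per NM-R.

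Ltf, the gene of lactoferrin, an iron-binding protein of the secondary granule, lies on chromosome 9 in 17 exons (ENSMUSG00000032496.3). The mice had 1601, 1487 and 1266 normalized counts. The ssNM-Rs had 8099.5 (animal 2), 8469 (animal 3) and 5811 (animal 6), and the lsNM-Rs had 10794, 10721 and 10121. The 3 groups did not overlap. The difference from mice was 2.35 in ssNM-R and 2.87 in lsNM-R on the log2 scale, with a standard error of 0.15 for both (adjusted p = 4.80e-07 and 1.46e-07).

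Mmp8 encodes the neutrophil collagenase, which is stored in the same granule, and was higher than in mice in the enlarged spleens. In the small ones its mean was 0.966 times that of mice, a difference not past the test. Its gene (ENSMUSG00000005800.2) spans 7558429 to 7568486 on chromosome 9. The mice had 132, 199 and 137 normalized counts and the ssNM-Rs 135, 182 and 136, so these groups lay within the same range. The lsNM-Rs had 357, 421 and 367 and lay above all 6 other spleens. Compared to mice the log2 fold change was -0.04 in ssNM-R (95% interval -0.47 to 0.39, adjusted p = 0.862), while Mmp8 was 2.44-fold higher in lsNM-R (log2 fold change 1.30, adjusted p = 1.52e-04). The mean of both cohorts passed the threshold as well (0.63, adjusted p = 0.00567), but it averages 2 cohorts that do not overlap. The sign in ssNM-R was not stable, since it turned to 0.15 without mouse 2, to 0.03 without ssNM-R 2 or without ssNM-R 6, and to 0.0693 when spleens were scaled to the same upper quartile.

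Mmp9 encodes gelatinase B, the protease that names the gelatinase or tertiary granule, and monocytes and macrophages make it too. It lies on chromosome 2 from 164766280 to 164781350 on the plus strand. The mice had 799, 708 and 542 normalized counts. The ssNM-Rs had 1902, 2683 and 2481, and the lsNM-Rs had 1018, 849.7 and 2111, so that lsNM-R 5 lay among the ssNM-Rs while lsNM-R 1 and lsNM-R 4 lay just above the mice. In ssNM-R it was 3.45-fold above mice (log2 fold change 1.79, SE 0.30, adjusted p = 3.96e-04). In lsNM-R the log2 fold change was 0.86 (adjusted p = 0.0267) and 4 alternatives ended this call. It was lost without lsNM-R 5 (0.46, adjusted p = 0.0631), without mouse 3 (0.70, adjusted p = 0.102), without mouse 2 (0.89, adjusted p = 0.0548) and with a term for deep libraries (0.68, adjusted p = 0.137).

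S100a9 encodes a subunit of calprotectin, the most abundant protein of the neutrophil cytosol, which binds calcium and withholds zinc from microbes. Its gene covers 90496554 to 90499643 on the minus strand of chromosome 3. Its partner gene S100a8 is not listed in the table under that symbol. The mice had 4477, 4211 and 3604 normalized counts, the ssNM-Rs 16840.4, 15843 and 10976, and the lsNM-Rs 25782, 19885 and 15639. All NM-Rs were above all mice, and the cohorts overlapped. The mean rose 3.55-fold in ssNM-R and 4.99-fold in lsNM-R (adjusted p = 3.19e-05 and 6.13e-06).

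Padi4 showed the largest difference of the 9 genes between NM-R and mouse. It encodes the peptidylarginine deiminase that turns arginine of histones into citrulline, a step in the release of neutrophil extracellular traps, and lies on the minus strand of chromosome 4 from 140301780 to 140330151. The mice had 119, 109.8 and 87.0 normalized counts. The ssNM-Rs had 2204, 2653 and 1936 and the lsNM-Rs had 2856, 3538 and 2358. The lowest NM-R was thus far above the highest mouse, with a mean fold of 21.5 in ssNM-R and 27.7 in lsNM-R (adjusted p = 2.72e-08 and 1.80e-08). Padi4 held the lowest level per kilobase of the 9 genes in mouse spleen.

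Of the receptor genes of the mature cell, Csf3r was lower than in mice in one cohort and Cxcr2 in both. Csf3r encodes the receptor for granulocyte colony-stimulating factor and lies on the plus strand of chromosome 4 from 125701794 to 125722219. The mice had 1900.5, 1455 and 1349.7 normalized counts, the ssNM-Rs 666, 974 and 746, and the lsNM-Rs 1249, 1562 and 1615. The ssNM-Rs lay below all mice, 1.97-fold lower in the mean (log2 fold change -0.98, SE 0.18, adjusted p = 5.86e-04). The lsNM-Rs overlapped the mice, with a log2 fold change of -0.08 and a 95% interval of -0.48 to 0.31 (adjusted p = 0.688). The sign of that value turned without mouse 1 (0.06), without lsNM-R 1 (0.03) and at the same upper quartile (0.0234). The mean of both cohorts was lower than mice (-0.53, adjusted p = 0.00926), but this call was lost without mouse 1 (-0.39, adjusted p = 0.0547).

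Cxcr2 encodes the receptor for CXC chemokines that draws mature neutrophils out of the bone marrow and into tissues. It lies on chromosome 1 (ENSMUSG00000026180.7). The mice had 578, 451 and 417 normalized counts, the ssNM-Rs 126, 159.1 and 91.0, and the lsNM-Rs 159.6, 255 and 204. Each NM-R was below each mouse. The fall was 3.85-fold in ssNM-R (log2 fold change -1.96, adjusted p = 3.98e-05) and 2.34-fold in lsNM-R (log2 fold change -1.23, adjusted p = 9.92e-04). For the mean of both cohorts against mouse, 7 of the 9 genes were higher and 2 lower (78.5% of all genes passed, 39.7% higher and 38.8% lower). The 6 NM-Rs and the mice did not overlap in 7 of the 9 genes, beside 72.6% of all genes (36.4% higher, 36.2% lower), and Mmp8 and Csf3r were the exceptions.

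**Figure D2:**
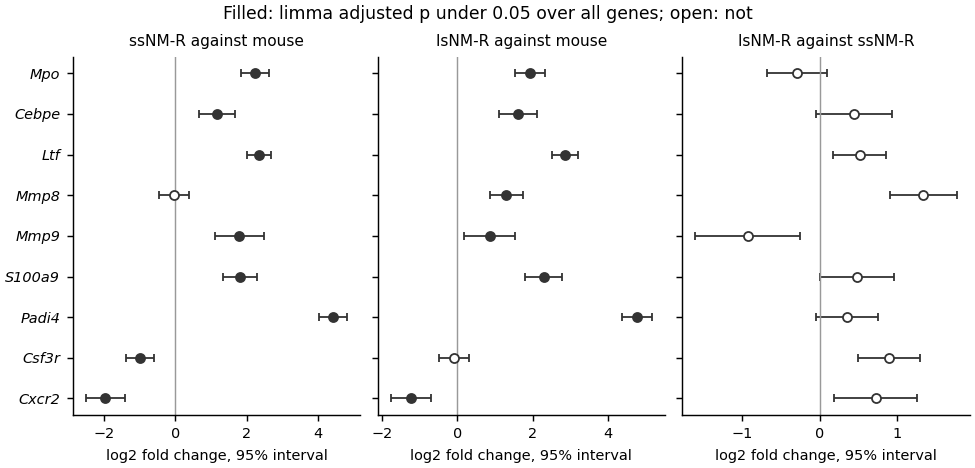
Limma log2 fold change (points) and 95% interval (bars) of the 9 genes in the 3 comparisons, filled where the adjusted p over all genes was under 0.05. Padi4 is farthest to the right against mice at 4.41 and 4.77, Cxcr2 is left of zero in both cohorts, and between the cohorts Mmp8 (1.34) and Csf3r (0.90) lie farthest right and Mmp9 (-0.93) farthest left.

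The comparison of lsNM-R with ssNM-R asks whether the content of the enlarged spleen differs from that of the small one. By limma 0 of the 9 genes passed the adjusted threshold, and 0% of all genes did. At an unadjusted p under 0.05, 5 of the 9 were higher in lsNM-R (Ltf, Mmp8, S100a9, Csf3r and Cxcr2) and Mmp9 was lower, beside 8.79% of all genes, 5.24% higher and 3.55% lower. EdgeR called 0 of the 9 as well, and 0% of all genes. DESeq2 called 2 of the 9, Mmp8 and Csf3r (adjusted p = 2.03e-06 and 0.00624), beside 0.441% of all genes. The median log2 fold change of the 9 genes was 0.48, against 0.0054 over all genes. It carries no independent weight either, as the genes were chosen with earlier results of these data known. From these same spleens, the paper reported gene sets of granulocytes and of Ltf-high neutrophils as increased in lsNM-R by gene set enrichment.

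Mmp8 had the smallest unadjusted p of all 12946 genes in this comparison, at 4.64e-05, and a limma adjusted p of 0.429. It was 2.53-fold higher in lsNM-R (log2 fold change 1.34, 95% interval 0.91 to 1.77), and its lowest lsNM-R value was 96.7% above its highest ssNM-R value. Csf3r ranked 11 among all genes (unadjusted p = 5.34e-04), was 1.85-fold higher (log2 fold change 0.90, 95% interval 0.50 to 1.30) and had a gap of 28.1% between the cohorts. Ltf was higher by 0.52 with a gap of 19.5%. Cebpe (0.45) and Cxcr2 (0.72) did not overlap between the cohorts either, but their gaps were 0.842% and 0.291%, which is less than 1 normalized count in both genes. Groups that did not overlap were thus seen for 5 of the 9 genes, all of them higher in lsNM-R, compared to 6.84% of all genes in that direction, 6.23% in the other and 13.1% in either.

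The other members overlapped between the cohorts. S100a9 was at 0.48 (95% interval 0.0024 to 0.97) and Padi4 at 0.36 (-0.05 to 0.76). Mpo, the earliest of the granule genes, was at -0.29 (-0.69 to 0.10), and Mmp9 at -0.93 (-1.61 to -0.25). Without the female, lsNM-R 4, the Mmp8 value was 1.27, that of Csf3r 0.85 and that of Mmp9 -0.67. With a term for library depth Mmp8 was at 1.35, Csf3r at 0.86 and Mmp9 at -1.02.

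**Figure D3:**
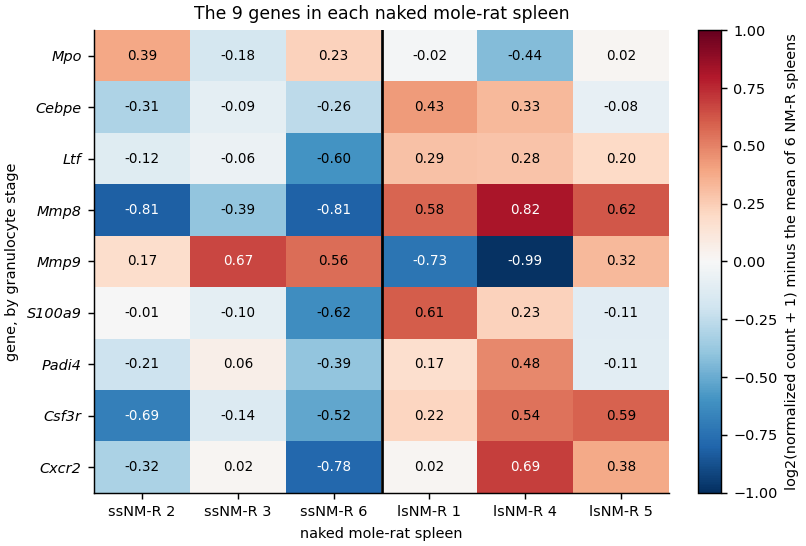
Log2(normalized count + 1) of each gene in each NM-R spleen minus its mean over the 6 NM-R spleens (colour and printed value), with ssNM-R left and lsNM-R right of the line. Mmp8 and Csf3r are negative in all 3 ssNM-R and positive in all 3 lsNM-R, whereas Mmp9 is positive in the ssNM-R and in lsNM-R 5 only, and ssNM-R 6 holds the lowest Ltf, S100a9, Padi4 and Cxcr2.

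The 6 NM-R spleens did not share 1 order over the 9 genes. ssNM-R 6 was the lowest NM-R for Ltf, S100a9, Padi4 and Cxcr2 but the second highest for Mpo and Mmp9. ssNM-R 2 was the highest for Mpo and the lowest for Cebpe, Mmp8 and Csf3r. lsNM-R 1 was the highest for Cebpe, Ltf and S100a9. lsNM-R 4 was the highest for Mmp8, Padi4 and Cxcr2 and the lowest for Mpo and Mmp9. The spread over the 6 NM-Rs, as a coefficient of variation, lay between 19.9% for Mpo and 48.6% for Mmp8. It pools both cohorts and so holds the difference between them. Within the cohorts it was 17.6% in ssNM-R and 8.99% in lsNM-R for Mmp8, and 17.2% and 51.6% for Mmp9.

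Ratios of 2 genes within a spleen, taken on normalized counts + 1, barely depend on how the library is scaled. The other 8 genes were set against Mpo, the gene of the earliest granule, and Mmp9 was set against Ltf. Between the cohorts 4 of 9 ratios did not overlap (exact 2-sided permutation test, p = 0.1, the smallest that 3 against 3 allows, adjusted p = 0.225). The share among other gene pairs was not taken, so this count has no background beside it. Mpo itself was at -0.29 between the cohorts, which enters all 8 ratios over it. Ltf, for instance, was at 0.52 by itself. Relative to Mpo, Mmp8 was higher in lsNM-R by 1.64, Csf3r by 1.19 and Ltf by 0.81 on the log2 scale, and Mmp9 relative to Ltf was at -1.45. Leaving out ssNM-R 3 raised the number of ratios that did not overlap to 8, and leaving out lsNM-R 5 raised it to 7, with fewer spleens to overlap.

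Between NM-R and mouse 4 of 9 ratios did not overlap, which gave the smallest p that 6 against 3 allows (exact 2-sided permutation test, p = 0.0238, adjusted p = 0.0536). The share among other gene pairs was not taken here either, and 72.6% of single genes did not overlap. Mpo itself was at 2.08, which enters all ratios over it. Over Mpo, Padi4 was higher in NM-R by 2.51, while Csf3r was at -2.61 and Cxcr2 at -3.68. Mmp9 over Ltf was at -1.28, with ssNM-R 6 only just below mouse 3. The ratio of S100a9 to Mpo was at -0.03 (exact permutation p = 0.976), and its sign turned without ssNM-R 2 (0.05) or ssNM-R 6 (0.14). The mice varied little in some ratios. The SD of log2 S100a9 over Mpo was 0.026 among the mice and 0.592 among the NM-Rs, and that of log2 Ltf over Mpo was 0.019 and 0.567. The NM-R values pool both cohorts. Within ssNM-R and lsNM-R the SD was 0.468 and 0.452 for S100a9 over Mpo, and 0.483 and 0.281 for Ltf over Mpo. Gene length and homologue annotation enter a ratio between species.

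**Figure D4:**
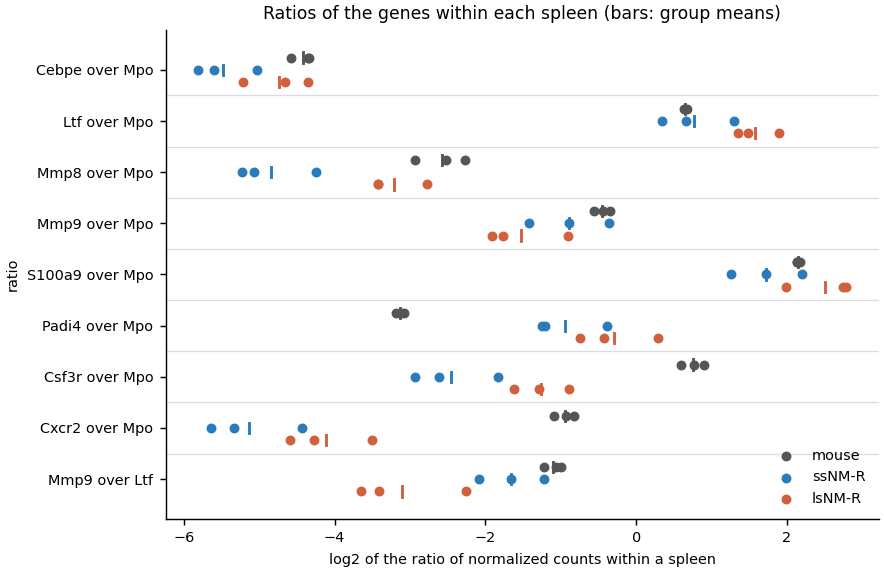
Log2 ratio of normalized counts of 2 genes within each spleen, with points for spleens and short bars for group means. For Csf3r over Mpo and Cxcr2 over Mpo all 6 NM-R points lie left of the mice, for Padi4 over Mpo all lie right of them, and for Mmp8 over Mpo the lsNM-R points lie right of all ssNM-R points.

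Genes of the same granules and of their control were taken from lists. They are given for the mean of both cohorts against mouse unless stated, where most genes passed the threshold, as given above. A call for this mean need not hold in each cohort alone. Of 13 primary granule genes 5 are listed, and Elane, Prtn3 and Ctsg, the serine protease genes, are not listed under these symbols. Mpo and Cd63, a granule membrane tetraspanin, were higher, the latter at 892 ± 49.9 in mice and 5056 ± 591 in NM-R. Ctsc, the protease that activates the granule serine proteases, fell by 1.75 and Gusb, a lysosomal glucuronidase, fell by 0.93 on the log2 scale. Srgn, the proteoglycan that holds granule proteins, was at 0.28 (adjusted p = 0.0772).

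Of 18 secondary granule genes 10 are listed, of which 5 were higher and 5 lower in NM-R, with a median of 0.076. Camp, Lcn2 and Itgb2 are not among them. Besides Ltf and Mmp8, Olfm4 rose from 27.4 ± 8.84 to 321 ± 123 normalized counts and the integrin gene Itgam by 1.22 on the log2 scale. Hp, the gene of haptoglobin, rose by 2.00, from 425 ± 16.6 to 2030 ± 1351, with 706 in ssNM-R 2 and 4377 in ssNM-R 6. Slpi, a protease inhibitor, fell from 1398 ± 48.2 to 148 ± 46.8, and Pglyrp1, a peptidoglycan-binding protein of this granule, from 338 ± 10.2 to 19.3 ± 14.4. Between the cohorts none of the 10 passed the adjusted threshold. At an unadjusted p under 0.05, 6 were higher in lsNM-R and 0 lower, beside 5.24% and 3.55% of all genes. The 6 were Ltf, Mmp8, Olfm4, Pglyrp1, B4galt1 and Cybb, and the median of the list was 0.50. Without Ltf and Mmp8, 4 of 8 remained and the median was 0.39.

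Of 13 genes of tertiary granules and vesicles 10 are listed, with 7 higher and 2 lower in NM-R. Mmp25, a membrane-bound protease of neutrophils, rose from 90.3 ± 6.64 to 542 ± 158, and the alkaline phosphatase gene Alpl by 2.22 on the log2 scale. Cda (4.18 ± 2.77 in mice, 55.7 ± 22.5 in NM-R) and Vnn1 (2.76 ± 2.55 and 23.2 ± 16.8) had the largest log2 differences, from a few reads in mice. The aminopeptidase gene Anpep fell by 0.65. Between the cohorts 3 genes of the list, Mmp25 and Qsox1 among them, were higher in lsNM-R at an unadjusted p under 0.05. Mmp9 was the single one that was lower. Of all genes, 5.24% were higher and 3.55% lower at that rule.

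Of 14 granulocyte transcription factor genes 11 are listed, 2 higher and 6 lower. Cebpe and Cebpd (257 ± 67.4 to 837 ± 492) were higher. Cebpd stood at 1503 in ssNM-R 6 and 1433 in lsNM-R 5, and at 461 to 620 in the other NM-Rs. Irf8, which directs progenitors to the monocyte and dendritic cell branch and is expressed in B cells, fell by 1.45, Cbfb fell by 1.36 and Spi1, the gene of PU.1, fell by 1.30. Gfi1, the repressor that supports the granulocyte branch, fell by 0.69 (adjusted p = 0.0322). Cebpa is not listed. B cells express Spi1 as well, and the B cell genes given further on moved in the same direction, with their part in these values not tested.

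Among 26 genes of receptors and cytosol proteins of the mature neutrophil 16 are listed. Of these, 11 were higher and 5 lower in NM-R, with a median of 1.64. The C-type lectin receptor genes Clec4e and Clec4d rose by 3.88 and 3.49, and the formyl peptide receptor gene Fpr1 by 2.20. Cxcr2, Csf3r, Ptafr, Alox5ap and Mxd1 were lower, Ptafr at 391 ± 32.4 in mice and 217 ± 96.6 in NM-R. All 5 were called lower in ssNM-R alone, but in lsNM-R alone only Cxcr2 and Alox5ap were. In lsNM-R the limma adjusted p was 0.688 for Csf3r, 0.0983 for Mxd1 and 0.0898 for Ptafr. In lsNM-R compared to ssNM-R 8 of the 16 were higher and 0 lower at an unadjusted p under 0.05. Of all genes, 5.24% were higher and 3.55% lower at that rule. None of the 16 passed the adjusted threshold, and the median was 0.47. Without S100a9, Padi4, Csf3r and Cxcr2, 5 of 12 remained (Alox5ap, Mxd1, Il1rn, Lrg1 and Clec4d), with a median of 0.41. In the same comparison the median was 0.30 over the B cell genes and 0.35 over the T cell genes described further on, and the part of those cells was not tested. These lists were made with results of these data known, and their counts carry no independent weight.

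The 6 NADPH oxidase genes, whose products make superoxide, held 0 that were higher in NM-R and 5 of 6 that were lower, of which Ncf1 (-2.33) and Rac2 (-2.29) differed most and Ncf4 (-0.38) least. Cybb and Cyba are also counted with the secondary granule. These genes are active in B cells and macrophages too. Among 8 listed genes of cytokines and homing signals, Stat3 (0.54) and the macrophage growth factor gene Csf1 (1.52) were higher in NM-R. Csf1 stood at 11638 in ssNM-R 6 and 8975 in lsNM-R 5, and at 4234 to 5535 in the other NM-Rs. For the mean of both cohorts Cxcr4 was lower (-0.75, limma adjusted p = 0.0302). Against mice 1 gene of this list was called lower in ssNM-R and 0 in lsNM-R. Cxcr4 had 1106 to 1356 normalized counts in ssNM-R, while lsNM-R had 2042, 1223 and 3391, beside 1958 to 3151 in mice. Cxcl12, which holds Cxcr4-bearing neutrophils in the marrow, was at -0.25 (adjusted p = 0.344), and the ligand genes Csf3, Cxcl1 and Cxcl2 are not listed.

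**Figure D5:**
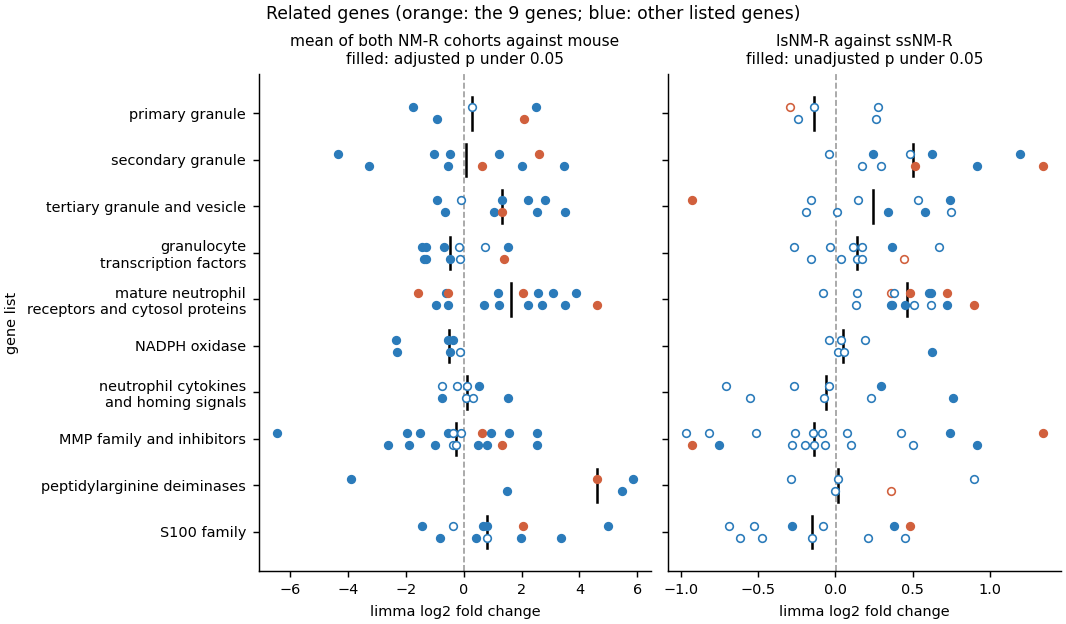
Limma log2 fold change of every listed gene (points), of each list's median (black bars) and of the median of all genes (dashed line), with the 9 genes in orange. Against mice the mature neutrophil list is shifted right (median 1.64) and the NADPH oxidase list left (-0.52). Between the cohorts the secondary granule and mature neutrophil lists have medians of 0.50 and 0.47, with filled points at unadjusted p only.

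The protein families of Padi4, S100a9, Mmp8 and Mmp9 were listed as well. All 5 peptidylarginine deiminase genes are in the table. Padi1 rose from 11.2 ± 3.97 to 694 ± 142 normalized counts and Padi3 from 9.87 ± 4.27 by 5.46 on the log2 scale, while Padi2, the form of muscle, brain and macrophages, fell from 520 ± 63.7 to 36.3 ± 15.4. Padi6, a gene of the oocyte, was at 0 in all mice and at a mean of 1.42 in ssNM-R and 3.11 in lsNM-R. How reads were shared among these related genes was not tested. Of 16 genes of the S100 list 11 are listed, 7 higher and 2 lower in NM-R. S100a3 (1.77 ± 1.29 in mice, 82.4 ± 16.9 in NM-R) and S100a5 (1.05 ± 0.042 and 21.3 ± 7.99) were the highest, and S100a1 (-1.44) and S100pbp (-0.84), whose product binds an S100 protein and is not one, were the lowest.

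Of 22 matrix metalloproteinase and inhibitor genes 19 are listed, 8 higher and 7 lower in NM-R, with a median of -0.29. Mmp12, the macrophage elastase gene, had 103 ± 21.6 normalized counts in mice, was at 0 in all 3 ssNM-Rs and had a mean of 0.471 in lsNM-R. Mmp28 fell from 173 ± 18.2 to 28.6 ± 8.68. Timp1, which encodes the inhibitor that binds MMP9, was higher by 0.95 (adjusted p = 0.00186). Mmp8 and Mmp25 were the MMP genes with the smallest unadjusted p between the cohorts, at 4.64e-05 and 0.00139, both higher in lsNM-R.

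The likeness of 2 patterns over the 9 spleens was measured as the root mean square (RMS) difference of centred log2 values, among genes whose mean reached 100 normalized counts. The 2 nearest genes were Fgfr1 and Mpp3 for Mpo (RMS 0.147 and 0.164), Fam135a and Kiaa0513 for Cebpe (0.149 and 0.165), Klhl3 and Slc6a12 for Ltf (0.162 and 0.165), Aoah and Neb for S100a9 (0.152 and 0.159), F13a1 and Shisal1 for Padi4 (0.231 and 0.240), and Luzp1 and Psd3 for Cxcr2 (0.153 and 0.186). Cybb, which encodes the membrane subunit of the oxidase, was the nearest to Csf3r (0.194), ahead of Crybg3 (0.239). Mmp8 and Mmp9 had the most distant neighbours, Cd101 (0.338) and Megf9 (0.371) for Mmp8 and Tmem47 (0.327) and a gene listed without a symbol (0.328) for Mmp9. Each gene was centred on its mean over mice and NM-Rs, so the size of the species difference enters this measure. Fgfr1, for instance, was at 2.13 in NM-R against mouse, beside 2.08 for Mpo. None of the 9 genes was among the 2 nearest genes of another, but their species differences ranged from -1.60 to 4.59.

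Genes of other cell types moved between the species beside these results. Of 12 listed erythroid genes 12 were higher in NM-R, with summed levels of 196353 to 293143 normalized counts in NM-R and 28049 to 82981 in mice. All 10 listed B cell genes were lower (3583 to 8805, compared to 66382 to 67835 in mice), as were 11 of 11 T cell genes (3633 to 7178, compared to 13265 to 14499). Of 15 monocyte and macrophage genes 6 were higher and 6 lower, and their sums were 76115 to 101869 in NM-R and 64699 to 77917 in mice. No defining marker of these lists was at 0 in all spleens of a group. Between the cohorts the sums of all 4 lists overlapped and 0 of their genes passed the adjusted limma threshold. At an unadjusted p under 0.05, 1 monocyte and macrophage gene was higher in lsNM-R and 1 lower. In the other lists 1 B cell gene and 1 T cell gene were higher, and 0 erythroid genes passed. Of all genes, 5.24% were higher and 3.55% lower at that rule. The list medians between the cohorts were 0.30 for B cell, 0.35 for T cell, -0.03 for monocyte and macrophage and -0.07 for erythroid genes. The part of these cell types in the differences between species or cohorts was not tested.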

How the data were processed

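RNA from 9 spleens was sequenced, 1 library per animal. Per the methods and the submitters' processing notes, the authors aligned reads with STAR 2.5.3a to mm9 (mouse) or the NM-R genome, counted them with HTSeq 0.10.0, named NM-R genes by mouse homologues and divided counts by DESeq2 size factors over both species. The deposited signal is thus a normalized count, not divided by length. The labels and the paper differ on the sequencer, the library kit and the kit maker, and whether counting used strand is not given in the sources used here. Whole reads were recovered from the steps of the values (100% whole within 0.01). Summed over the genes of the table, the libraries held 7815326 to 18387599 reads (median 10965902).

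Log2(normalized count + 1) was fitted in limma 3.58.1 (R 4.3.3) with 1 mean per group over all 9 spleens, an intensity trend in the prior variance and 2-sided tests, with p-values adjusted by Benjamini-Hochberg for 12946 genes (threshold 0.05). Folds are ratios of group means. Ratios within spleens used exact permutation tests, adjusted over 9 ratios. The fit was tested on simulated reads in which few genes differed. Their scaling was known, so scaling across species was not tested. Alternatives were pseudocounts 0.5 and 5, a mean of at least 10, same total, same upper quartile, NM-R median of ratios, no trend, compared groups only, edgeR 4.0.16 and DESeq2 1.42.0 on recovered reads, a replicate block, a term for libraries over 14000000 reads and each spleen left out.

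The 9 genes and the lists were chosen with earlier results of these data known. Named genes are the 9, the 2 highest and 2 lowest of each list by NM-R against mouse (mean of at least 10), partner genes of the 9, and the 2 genes of most similar pattern. Other named genes are members of a list, chosen after their values were seen, and a few genes that the rule names are not reported here. Start sites and sequences are from mm9 with GENCODE M1. The groups are those of the labels, p-values measure the spread between 3 animals per group, and counting error is not given separately.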

Additional observations from a re-analysis of the deposited data

How the results depend on the processing

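In all, 64 results gave 1070 alternative values over 21 settings, of which 1050 counted as unchanged. A fold change had to keep its direction and its side of the threshold, and a count had to stay within 1.5 times. A difference in a ratio had to keep its direction and move by less than the pooled SD of the 2 groups. Rescaling to the same upper quartile moved the median log2 fold change over all genes from 0.0097 to 0.114 for NM-R against mouse, and turned Mmp8 in ssNM-R against mouse to 0.0693 and Csf3r in lsNM-R against mouse to 0.0234, both not past the threshold. Leaving out 1 spleen gave -0.18 to 0.15 for Mmp8 in ssNM-R against mouse, -0.18 to 0.0647 for Csf3r in lsNM-R against mouse, and -0.17 to 0.14 for S100a9 over Mpo between NM-R and mouse. Between lsNM-R and ssNM-R it gave 4 to 8 ratios that did not overlap, and it gave 1 to 2 genes called lower in the mean of both cohorts against mouse, the call of Csf3r being lost without mouse 1. Mmp9 in lsNM-R against mouse lost its call under the 4 settings given above, with a range of 0.46 to 1.12 over all left-out spleens. DESeq2 called 2 genes higher in lsNM-R than in ssNM-R where limma called 0, and the cause was not tested. The replicate numbers that mouse and NM-R share do not pair the animals (correlations of deviations 0.010, -0.0045 and 0.00076), and the replicate block left the count of genes called higher at 6 in ssNM-R, 7 in lsNM-R and 0 between the cohorts, with Mmp8 at 1.35 between them. The fit on compared groups alone could not be made for the mean of both cohorts, which uses all groups. Depth limited Cebpe most, with 31 reads at the lowest.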

Other observations

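Among the mice, the 9 genes kept nearly 1 order. Mouse 1 was the highest of the 3 for 8 of the 9 genes and mouse 3 the lowest for the same 8, with Mmp8 as the exception. This order was not particular to the 9 genes. From mouse 1 to mouse 3 the summed monocyte and macrophage genes fell as well, at 77917, 69466 and 64699 normalized counts. Eosinophil (2265, 2019 and 1653) and basophil and mast cell sums (279, 242 and 210) did so too. The summed erythroid genes ran the other way, at 28049 normalized counts in mouse 1, 66301 in mouse 2 and 82981 in mouse 3. T cell sums also rose (13265, 13745 and 14499), and B cell sums kept neither order (66907, 66382 and 67835). In the NM-Rs the erythroid sum was lowest in ssNM-R 6 (196353), which was also the lowest NM-R for 4 of the 9 genes, and highest in ssNM-R 2 (293143).

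Genes of the other granulocytes did not move as one group. The eosinophil granule genes Epx (144 ± 88.5 in mice, 310 ± 216 in NM-R, limma adjusted p = 0.269) and Prg3 (137 ± 24.8 and 884 ± 638, adjusted p = 0.0399) stood beside the eosinophil receptor genes Ccr3, which fell from 1368 ± 220.0 to 23.1 ± 14.7, and Il5ra, which fell from 329 ± 19.0 to 21.0 ± 12.3. The summed eosinophil genes lay between 159 in ssNM-R 6 and 2151 in ssNM-R 3. Of the basophil and mast cell list 5 genes are in the table and 5 were higher in NM-R. Hdc, which makes histamine, rose from 159 ± 21.3 to 676 ± 111, the mast cell chymase gene Cma1 from 24.6 ± 3.87 to 146 ± 42.9, Fcer1a by 1.92 and Ms4a2 by 0.90 on the log2 scale.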
